A study of Mus musculus with 53 samples.

Results

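Gfap and 9 other transcripts that astrocytes raise in injury and inflammation (Serpina3n, Vim, C4b, Cd44, Lcn2, Osmr, S1pr3, Timp1 and Steap4) were followed through the hypothalamus of mice without neuronatin. These 10 of the 53379 genes in the count tables were chosen by symbol after earlier results of these data had shown Gfap as the higher gene in obese mutants on chow. The chow values, and the relation of the chow mutants to body weight, are therefore given as a description with no test, and Gfap has no p in any comparison that includes a chow group. The library types were laser-captured arcuate nucleus (ARC) of males, paraventricular nucleus (PVN) of males and PVN of females, all from adult C57BL/6 mice, with an age of 13 to 14 weeks in the protocol. Nnat+/-p mice carried the null allele, in which a lacZ cassette replaces part of the gene, on the paternal chromosome in every tissue. Nnat is imprinted and expressed from the paternal copy, and the Nnat+/+ controls were littermates.

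On chow, the ARC libraries comprised 2 from Nnat+/+ males, 4 from non-obese and 4 from obese Nnat+/-p males. The PVN libraries on chow comprised 3, 3 and 4 of the same male classes and 4, 3 and 3 of the same female classes. Non-obese meant under 35 g in males and under 25 g in females, and obese meant over 37 g and over 30 g. On a 45% fat diet (HFD) there were 6 Nnat+/+ and 4 Nnat+/-p ARC libraries, and 6 Nnat+/+ and 3 Nnat+/-p PVN libraries, all male. Of 53 libraries, 49 entered, because libraries 5, 7, 32 and 35 were left out. The protocol text speaks of male mice only, although 12 libraries carry a female label. The labels do not say that each library came from its own mouse, so that p-values measure only the spread between libraries.

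Gfap encodes the glial fibrillary acidic protein, the intermediate filament that is the classical stain for astrocytes. In a resting hypothalamus many astrocytes hold little of it, and its transcript climbs when astrocytes become reactive. Cytokines of the interleukin 6 family, such as oncostatin M, leukemia inhibitory factor and ciliary neurotrophic factor, signal through the shared receptor chain gp130, the JAK kinases and the transcription factor STAT3, and STAT3 is a known inducer of Gfap, Serpina3n and Steap4. Diet-induced gliosis of the ARC, the nucleus that senses leptin and nutrients, is a long-known accompaniment of high fat feeding in rodents.

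Several libraries did not match their labels in every check. Total counts of the 49 libraries ran from 1479953 to 30228973. Nnat, the targeted gene, lay at 224 to 584 counts per 1000000 of a library (CPM) in the 21 Nnat+/+ libraries and at 0.268 to 13.7 CPM in the 28 Nnat+/-p libraries. Library 15, labelled PVN of a chow Nnat+/+ male of 32.45 g, held 9.77 CPM summed over 5 PVN neuron markers, against 489 to 4774 CPM in 27 other PVN libraries, and 139 CPM over the ARC neuron markers. Library 24, labelled PVN of an HFD Nnat+/+ male, held 150 CPM of the same PVN markers. Fitted PVN changes of Gfap, C4b and Serpina3n in males that rest on either are also given without them. Other PVN values of males, such as levels, shares, ratios and correlations, include them unless stated. Libraries 39 and 40 of the ARC share the weight of 34.3 g and may stem from 1 mouse. In HFD males, the weights 42.9 and 43.9 g go with opposite genotypes in the ARC and PVN labels.

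On GRCm38, Gfap (ENSMUSG00000020932) lies on the minus strand of chromosome 11 from 102887336 to 102900912. Serpina3n (ENSMUSG00000021091) lies on chromosome 12 from 104406729 to 104414329, and C4b (ENSMUSG00000073418) on chromosome 17 from 34728380 to 34743882. The values are sums over whole genes, so that exon and intron reads cannot be told apart. STAT-type motifs (TTCNNNGAA, both strands) were searched in RefSeq windows reaching 250 bases before and 50 after the RefSeq start of each gene, which were found for 9 of the 10 members and not for C4b. Gfap and Steap4 held a match, and 8.3% of all 32851 windows did. An AP-1-type motif (TGANTCA) was found for Osmr alone among the members, beside 7.81% of all windows. A match is a run of letters and not evidence of binding. The RefSeq window of Gfap spans 102897151 to 102897450, inside the gene bounds given above, which come from GENCODE and reach farther upstream. The Serpina3n window held no match to the STAT-type motif. The Gfap and Steap4 stretches are shown, with the motif in capitals, as the 2 member windows that held one, and an effect of STAT3 on them was not tested. They run 5′ to 3′ on the gene's strand of GRCm38.p6, at chr11:102897191-102897300 (minus strand, ending 10 bases after the start) and chr5:7960302-7960421 (plus strand, with the motif starting 116 bases before the start).
Gfap: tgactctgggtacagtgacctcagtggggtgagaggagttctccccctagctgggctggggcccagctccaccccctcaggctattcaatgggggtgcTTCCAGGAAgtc
Steap4: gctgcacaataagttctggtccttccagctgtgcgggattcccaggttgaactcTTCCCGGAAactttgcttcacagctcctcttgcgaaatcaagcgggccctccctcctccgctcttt

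Compared per kilobase of merged exon, Gfap was the leading member in all 3 tables, with a median of 31.3 CPM per kb in the ARC (n = 20), 17.5 in the male PVN (n = 19) and 26.0 in the female PVN (n = 10). Serpina3n followed in the ARC at 24.4 CPM per kb, but in the male PVN it stood at 7.05, beside 7.43 for Vim, the filament gene that astrocytes share with tanycytes and vessel cells. C4b, a complement component that reactive astrocytes express, stood at 4.74 CPM per kb in the ARC and at 3.18 in the male PVN. Each nucleus of the males had its own count table, so that a difference in level between nuclei cannot be told apart from one between tables. The order of Serpina3n and Vim in the male PVN rests on ranges that overlap, from 1.67 to 29.1 and from 0.652 to 14.1 CPM per kb. S1pr3, Cd44 and Osmr had medians between 0.155 and 1.23 CPM per kb. Lcn2, Timp1 and Steap4 were near the limit of detection, with 76, 100 and 206 counts over all 49 libraries and a count of 0 in 29, 33 and 24 of them. A count of 0 allows up to 3 counts, which is 0.0992 to 2.03 CPM for the deepest and the shallowest library, for counting error only.

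In the ARC on chow, Gfap was lowest in Nnat+/+ males and highest in obese Nnat+/-p males. It stood at 32.6 and 28.9 CPM in the 2 Nnat+/+ libraries and at 181, 204, 218 and 308 CPM in the 4 obese Nnat+/-p libraries. Every obese library was above both controls, and the groups did not overlap, while 6.13% of all genes were higher without overlap. Non-obese Nnat+/-p males split, with 38.0 and 50.7 CPM at 27.4 and 33.6 g and 195 CPM in both libraries labelled 34.3 g, which is above the lowest obese library. The means were 30.7 ± 2.61 (SD, n = 2), 120 ± 87.3 (SD, n = 4) and 228 ± 55.5 CPM (SD, n = 4) in this order. In the fit, the log2 fold change was 2.84 (SE 0.46) for obese Nnat+/-p against Nnat+/+, 1.70 (SE 0.44) for non-obese Nnat+/-p against Nnat+/+ and 1.14 (SE 0.32) between the Nnat+/-p classes. Gfap was the only member past the adjusted p threshold of 0.25 in the first of these comparisons, in which 0.0205% of all tested genes passed, and no member passed in the other 2, in which 0.0136% and 0.00682% passed. Nothing is read from these counts, because this gene was chosen on them. In bulk tissue, more RNA per astrocyte and more astrocytes cannot be told apart.

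In the male PVN on chow, Gfap was again highest in the obese mutants, while Nnat+/+ and non-obese Nnat+/-p males overlapped. The 3 Nnat+/+ libraries stood at 60.1, 81.5 and 37.0 CPM, the last being library 15. Non-obese Nnat+/-p libraries stood at 28.5, 70.3 and 72.3 CPM, and obese ones at 84.8, 103, 134 and 205 CPM. All 4 obese libraries were above the other 6, by a narrow margin at 84.8 against 81.5 CPM. Of all genes, 2.31% were higher without overlap in obese Nnat+/-p than in Nnat+/+, and 1.61% than in non-obese Nnat+/-p. The log2 fold change was 1.23 (SE 0.31) against Nnat+/+, 1.29 (SE 0.31) against non-obese Nnat+/-p and -0.06 (SE 0.33) for non-obese Nnat+/-p against Nnat+/+. Without library 15 the first and the last were 1.06 (SE 0.34) and -0.25 (SE 0.34). No member passed the threshold in the 3 comparisons, in which 0.0256%, 0% and 0.0128% of genes passed. For the comparison with 0%, 260 of 15618 genes (1.66%) had an unadjusted p under 0.05 by edgeR. DESeq2 placed 1 member, Gfap, past the threshold in the first, from which nothing is read.

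In the female PVN, all of it on chow, Gfap was also highest in the obese mutants, and non-obese mutants lay between them and Nnat+/+ in the mean. It stood at 65.4, 74.3, 104 and 103 CPM in Nnat+/+, at 79.1, 115 and 170 CPM in non-obese Nnat+/-p and at 158, 169 and 228 CPM in obese Nnat+/-p females. The obese libraries were above all 4 controls, while 1 non-obese library at 170 CPM lay among them. Of all genes, 3.45% were higher without overlap in obese Nnat+/-p than in Nnat+/+ females. The log2 fold change was 1.04 (SE 0.30) for obese Nnat+/-p against Nnat+/+, 0.48 (SE 0.30) for non-obese Nnat+/-p against Nnat+/+ and 0.56 (SE 0.33) between the Nnat+/-p classes. No member was called in the 3 female comparisons, in which 0.0129%, 0.00646% and 0% of genes were, and 474 of 15485 genes (3.06%) had an unadjusted p under 0.05 in the last. Sex and count table coincide here, so that a difference between the sexes cannot be told apart from one between tables.

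**Figure D1:**
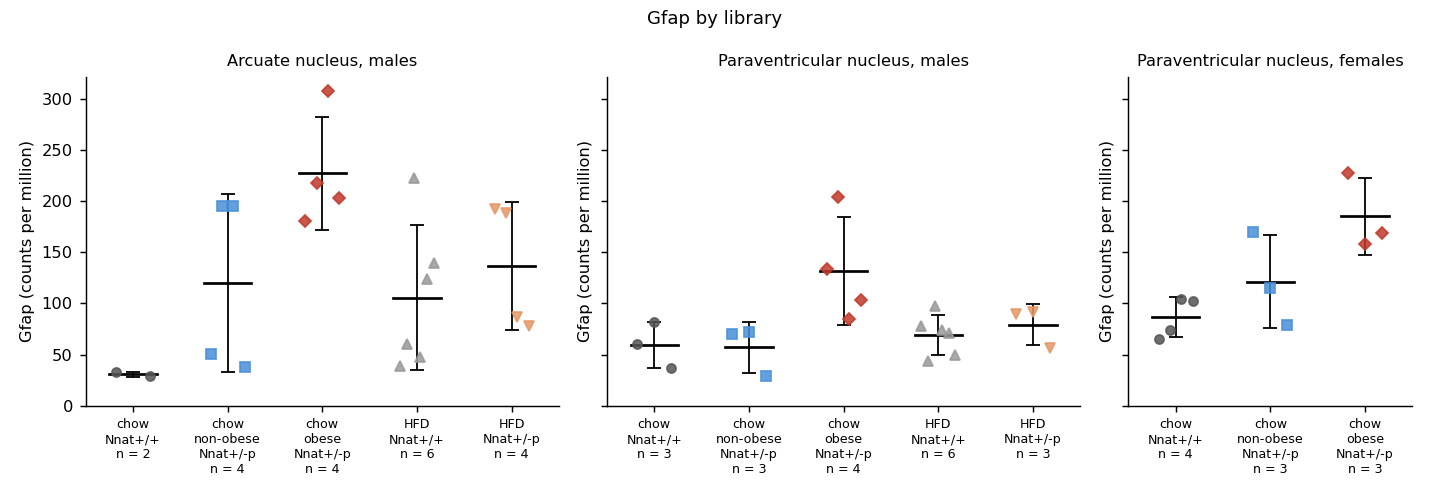
Gfap in CPM in every library (points), with group means (lines) and SD (bars), for males in the arcuate and paraventricular nuclei and females in the paraventricular nucleus. Obese Nnat+/-p libraries on chow stand between 181 and 308 in the arcuate nucleus, above the 2 Nnat+/+ libraries at 28.9 and 32.6, and the HFD groups spread over a wide range there.

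Among chow-fed Nnat+/-p males, Gfap went with labelled weight in both nuclei. In the ARC, the slope was 0.138 log2 units per g (SE 0.030, n = 8, 27.4 to 46.5 g), and in the PVN it was 0.128 log2 units per g (SE 0.022, n = 7, same range). Gfap was the only member called in the PVN, where 0.0121% of genes were, and no member was called in the ARC, where 0% were and 368 of 14561 genes (2.53%) had an unadjusted p under 0.05. Nothing is read from the PVN call, because Gfap was chosen on these chow libraries, and the call was lost without library 17, 18 or 22. These slopes describe the same libraries as the obese and non-obese classes and add nothing independent. Libraries of the same labelled weight and genotype existed for both nuclei, although the labels do not state that they came from the same mouse. At 27.4 g, Gfap stood at 28.5 CPM in the PVN and at 38.0 CPM in the ARC, the lowest mutant value in each. At 46.5 g the values were 205 and 218 CPM. At 41.66 g the nuclei differed, with 84.8 CPM in the PVN, the lowest of the obese class, and 308 CPM in the ARC, the highest. At 34.3 g, the PVN library stood at 72.3 CPM and the ARC libraries at 195 CPM each.

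On HFD, no relation of Gfap to weight passed the test. The 6 HFD Nnat+/+ males of the ARC ran from 38.7 to 223 CPM with a median of 92.0, and the value of 38.7 belonged to the heaviest label of 43.9 g. This weight goes with the other genotype in the PVN labels. The slope over these 6 libraries was -0.14 log2 units per g (SE 0.12, adjusted p = 0.736, from edgeR with the Benjamini-Hochberg method over all genes, as for each adjusted p below), and in the PVN it was 0.0074 (SE 0.070, adjusted p = 0.984), or 0.086 (SE 0.056, adjusted p = 0.675) without library 24. With single libraries left out, the ARC slope of Gfap ran from -0.25 to 0.047. C4b had a slope of -0.21 (SE 0.090, adjusted p = 0.610) in the same ARC libraries. Of all genes tested, 0% and 0.00676% passed in the 2 nuclei, and no member did. At an unadjusted p under 0.05, 1 member stood in each nucleus, C4b in the ARC and, with library 24 included, S1pr3 in the PVN, beside 8.03% (1049 of 13068) and 8.88% of all genes. The weights spanned only 37.4 to 43.9 g in the ARC and 37.4 to 42.9 g in the PVN. HFD Nnat+/+ males of 41.3 to 42.2 g in the PVN had 71.2 to 97.2 CPM of Gfap, while obese chow Nnat+/-p males of 41.17 and 41.66 g had 103 and 84.8 CPM.

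**Figure D2:**
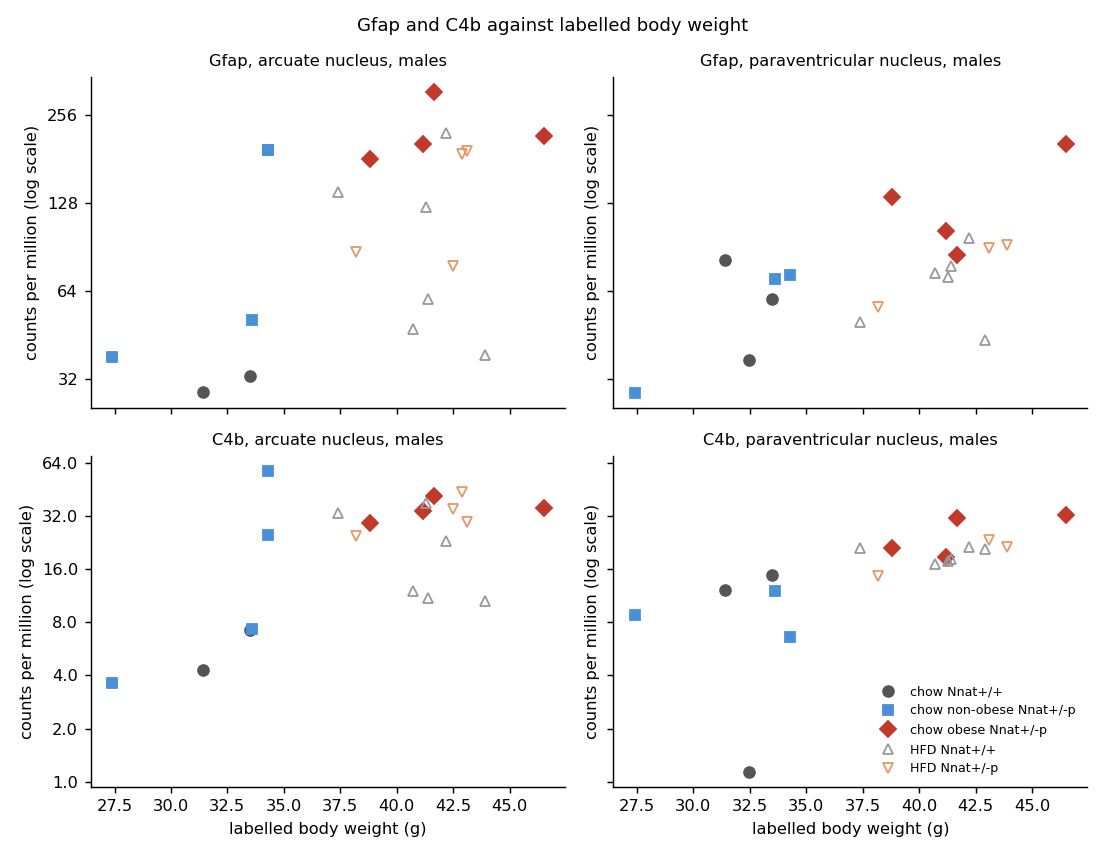
Gfap (top) and C4b (bottom) in CPM on a log scale against labelled body weight in g, 1 point per male library, filled for chow and open for HFD. In chow Nnat+/-p males both genes are low at 27.4 g and high at 46.5 g, the 2 arcuate Gfap points at 34.3 g coincide at 195, and the HFD Nnat+/+ slope of Gfap is -0.14 log2 units per g (SE 0.12) in the arcuate nucleus. That slope runs from -0.25 to 0.047 with single libraries left out.

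In chow males, C4b like Gfap had its highest group mean in the obese mutants of each nucleus, but single libraries parted. At 41.66 g in the PVN, C4b stood at 31.1 CPM where Gfap, at 84.8 CPM, was the lowest of the obese class. At 34.3 g there, C4b was the lowest non-obese value, 6.61 CPM, and Gfap the highest, 72.3 CPM. In the ARC it stood at 7.26 and 4.27 CPM in Nnat+/+ and at 29.1, 33.8, 35.5 and 41.4 CPM in obese Nnat+/-p males, a log2 fold change of 2.55 (SE 0.67). Its highest value of all, 57.4 CPM, was in library 39 of the 34.3 g pair, while library 40 held 24.9 CPM. In the PVN, obese Nnat+/-p males had 18.8, 21.0, 31.1 and 32.3 CPM. This was above the 14.7, 12.2 and 1.14 CPM of Nnat+/+ and the 6.61 to 12.1 CPM of non-obese Nnat+/-p males. Of all genes, 2.31% and 1.61% were higher without overlap in these 2 comparisons. The log2 fold changes were 1.68 (SE 0.56) and 1.56 (SE 0.56), and the first was 1.17 (SE 0.51) without library 15, which held the 1.14 CPM. The slope on weight was 0.135 (SE 0.045) in the ARC and 0.114 (SE 0.036) log2 units per g in the PVN. The ARC slope was 0.063 (SE 0.045) without library 43, the lightest mutant. In females the C4b groups overlapped, from 6.87 to 23.2 CPM in Nnat+/+, from 14.0 to 34.6 CPM in non-obese and from 18.8 to 29.7 CPM in obese Nnat+/-p. The near-identical C4a had 56 counts in the ARC and 105 in the male PVN, against 2433 and 1895 for C4b, so that reads shared between the pair remain uncertain.

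Serpina3n in the ARC was higher in HFD than in chow Nnat+/+ males, the clearest difference of any member between the diets. Diet and weight coincide in Nnat+/+ males, at 31.4 to 33.5 g on chow and 37.4 to 43.9 g on HFD, and cannot be told apart. Serpina3n encodes a secreted serine protease inhibitor and is among the strongest general markers of reactive astrocytes. It stood at 12.6 and 12.8 CPM in the 2 chow Nnat+/+ libraries and between 46.0 and 161 CPM in the 6 HFD Nnat+/+ libraries, with a median of 63.1, so that the groups did not overlap. The log2 fold change was 2.82 (SE 0.47, adjusted p = 0.00949), and the genes that passed were 1.16% of those tested, 0.495% in the higher direction. The test leans on only 2 controls, and without library 33 the adjusted p was 0.261. Each of the other Serpina3 genes had at most 23 counts over the 20 ARC libraries, against 5975 for Serpina3n. How the counting divided reads that match several of them is not given in the sources used here.

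Cd44, a cell surface receptor for hyaluronan, also passed the threshold in this comparison. It stood at 2.15 and 3.51 CPM on chow and at 4.45 to 19.7 CPM on HFD, with a median of 8.53, a log2 fold change of 2.08 (SE 0.60, adjusted p = 0.219). That call was lost without library 33, 34, 46 or 49, with an adjusted p of 0.990 without library 33. C4b stood at 10.6 to 37.9 CPM on HFD against 4.27 and 7.26 CPM, a log2 fold change of 2.03 (SE 0.63) with an adjusted p of 0.263, and thus missed the threshold. Gfap stood at 38.7 to 223 CPM against 28.9 and 32.6 CPM, with a log2 fold change of 1.90 (SE 0.56). It has no p here, because the control libraries are those on which it was chosen. Vim, at 13.5 to 32.5 CPM against 14.3 and 16.8 CPM and with a log2 fold change of 0.54 (SE 0.30, adjusted p = 0.666), did not pass. Between HFD and chow Nnat+/+ males of the ARC, 5 members did not overlap and were higher on HFD in the scaled values of the fit (Gfap, Serpina3n, Vim, C4b and Cd44), as were 6.76% of all genes. Leaving Gfap aside, C4b, Cd44 and Serpina3n had an unadjusted p under 0.05, as did 8.54% of all genes. Serpina3n and Cd44 were past the threshold, and Serpina3n alone was without libraries 44 and 51, whose weight labels conflict.

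In the PVN the same diet comparison had no member, Gfap left aside, past the threshold, with 1.43% of genes called. C4b alone had an unadjusted p under 0.05 by edgeR, as did 10.3% of genes, and DESeq2 placed 1 member, C4b, past the threshold. Gfap stood at 43.5 to 97.2 CPM on HFD and 37.0 to 81.5 CPM on chow, a log2 fold change of 0.31 (SE 0.26), which was 0.24 (SE 0.28) without libraries 15 and 24. It has no p, as in the ARC. C4b came nearest. It stood at 17.0 to 21.4 CPM in all 6 HFD Nnat+/+ libraries against 1.14, 12.2 and 14.7 CPM on chow, a log2 fold change of 1.27 (SE 0.41, adjusted p = 0.255), which was 0.74 (SE 0.38, adjusted p = 0.397) without libraries 15 and 24. Serpina3n stood at 12.7 to 20.4 CPM in 5 HFD libraries and at 60.0 CPM in library 24, against 4.58, 20.7 and 22.6 CPM on chow (log2 fold change 0.69, SE 0.46, adjusted p = 0.648). That value was 0.77 (SE 0.48, adjusted p = 0.493) without libraries 15 and 24, 0.18 without library 24 alone and 1.28 without library 15 alone. The diet difference of Serpina3n was 2.14 log2 units (SE 0.63) larger in the ARC than in the PVN in a joint fit. This edgeR fit, added after the data were seen, gave an unadjusted p of 0.00118 and an adjusted p of 0.860. For Gfap the value was 1.59 (SE 0.57), with no p for the reason given. Of all genes 0.0187% passed, none of them a member, while Cd44 and Serpina3n had an unadjusted p under 0.05, as did 5.62% of genes. Without libraries 15 and 24, the values were 2.07 for Serpina3n, with an adjusted p of 0.458, and 1.68 for Gfap, and 0.0572% of genes passed. This fit treats the libraries as independent, although many share a labelled weight and genotype between the nuclei. With the 16 sets of equal weight, genotype and diet as a block (33 libraries, voom), the Serpina3n difference was 2.03 (SE 0.88, adjusted p = 0.494), and 1.11% of genes passed, none of them a member. Within these sets, Serpina3n was higher in the ARC than in the PVN by 1.60 to 2.96 log2 units in all 5 HFD Nnat+/+ sets, and by -0.69 and 1.41 in the 2 chow Nnat+/+ sets. Nucleus and count table coincide in males, so that such differences in level cannot be told apart from differences between tables. The exact permutation test over the sets gave p = 0.0952 (two-sided), the smallest that 5 against 2 sets allow.

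**Figure D3:**
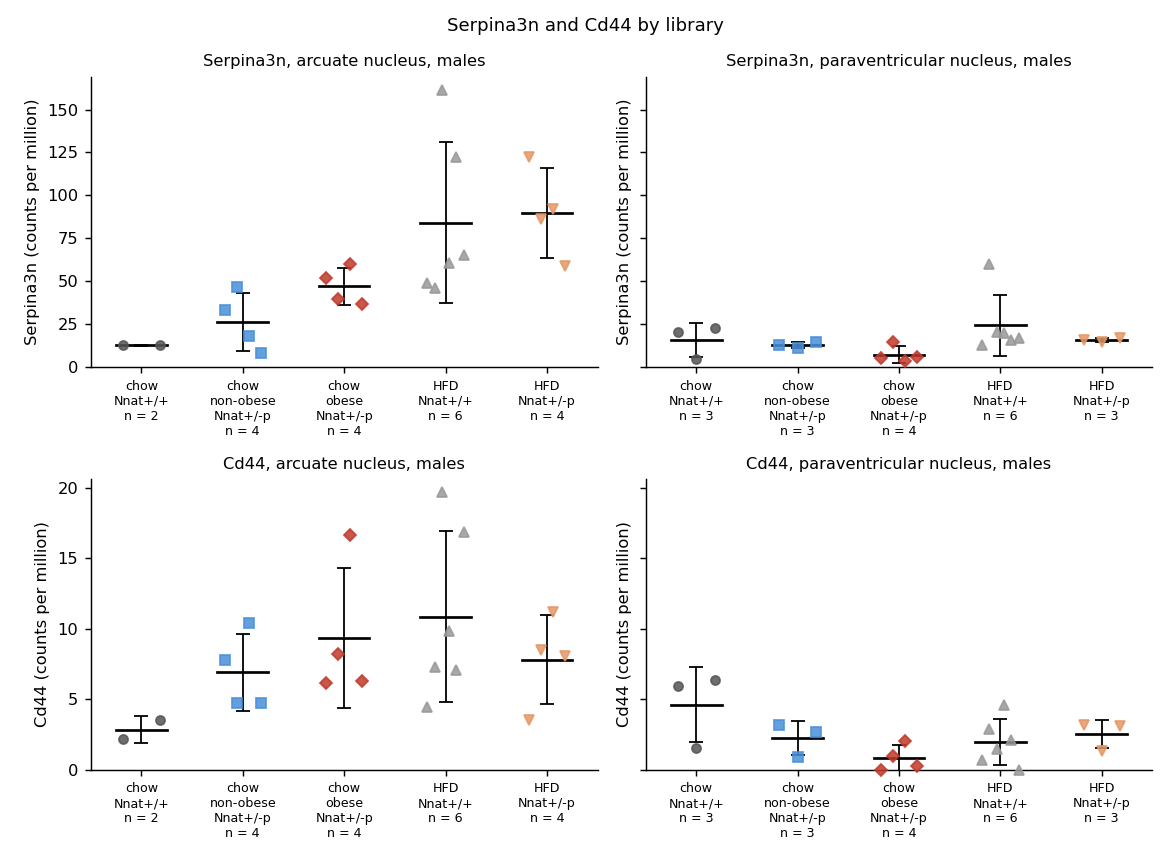
Serpina3n (top) and Cd44 (bottom) in CPM in every male library (points), with group means (lines) and SD (bars). In the arcuate nucleus all HFD libraries of both genotypes stand at 46.0 or more for Serpina3n against 12.6 and 12.8 in chow Nnat+/+, and in the paraventricular nucleus only library 24 of HFD Nnat+/+, at 60.0, stands that high.

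In obese mutants on chow, Serpina3n stood above Nnat+/+ in the ARC. In the male PVN its groups overlapped and its fold changes were negative, while in the female PVN they were positive. Obese females stood at 21.6 to 31.6 CPM, Nnat+/+ at 0.832 to 12.5 CPM and non-obese Nnat+/-p at 0 to 27.1 CPM. The log2 fold changes in females were 2.07 (SE 1.17) against Nnat+/+, higher without overlap as were 3.45% of all genes, and 0.99 (SE 1.25) against non-obese Nnat+/-p. The female libraries of lowest depth, 2 and 3 of Nnat+/+ and 10 of non-obese Nnat+/-p, held 1.13, 0.832 and 0 CPM. Deeper libraries held 12.3 and 12.5 CPM in Nnat+/+ and 16.3 and 27.1 CPM in non-obese Nnat+/-p. The part of depth in these fold changes was not tested. In the ARC, obese Nnat+/-p males stood at 37.1, 39.6, 51.8 and 60.3 CPM and non-obese ones at 8.32, 18.0, 33.1 and 46.6 CPM, with log2 fold changes of 1.84 (SE 0.44) against Nnat+/+ and 1.05 (SE 0.33) against non-obese Nnat+/-p, and a slope of 0.115 (SE 0.033) log2 units per g, which was 0.062 (SE 0.036) without library 43. In the PVN, obese Nnat+/-p males stood at 3.45, 5.14, 6.02 and 14.5 CPM and non-obese ones at 11.5, 12.7 and 14.5 CPM. The log2 fold changes there were -1.08 (SE 0.58) against Nnat+/+, which was -0.51 (SE 0.70) without library 15, and -0.81 (SE 0.59) against non-obese Nnat+/-p, while Gfap in the same libraries was above its controls. The ratio of Serpina3n to Gfap counts was thus 0.0383 to 0.0707 in the 4 obese male PVN libraries and 0.182 to 0.286 in the 4 obese ARC libraries. It was 0.467 to 1.29 in the HFD Nnat+/+ ARC libraries and 0.388 and 0.443 in the chow Nnat+/+ ones. The non-obese ARC libraries, at 0.0920 to 0.653, overlapped the obese ones, as did the chow Nnat+/+ male PVN libraries, at 0.0562 to 0.612. The ratio has no test, and its differences between the nuclei coincide with those between count tables. The difference between nuclei in obese against non-obese Nnat+/-p males was 1.85 log2 units (SE 0.60) for Serpina3n, given with no test because it rests on chow groups alone. Cd44 in the ARC had a log2 fold change of 1.65 (SE 0.65) for obese Nnat+/-p against Nnat+/+ males. Obese Nnat+/-p and Nnat+/+ libraries of the ARC did not overlap for Gfap, Serpina3n, C4b and Cd44, and 6.13% of all genes were higher without overlap.

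On HFD, the genotypes did not separate for any member. Gfap in the ARC stood at 78.0, 86.9, 189 and 193 CPM in the 4 Nnat+/-p libraries, within the Nnat+/+ range of 38.7 to 223 CPM, a log2 fold change of 0.34 (SE 0.38, adjusted p = 0.999). In the PVN it stood at 56.4, 89.7 and 91.8 CPM in Nnat+/-p against 43.5 to 97.2 CPM (0.21, SE 0.25, adjusted p = 1). These groups were not used to choose the genes. A p that misses the threshold does not show that the genotypes were alike. C4b in the ARC stood at 24.5 to 43.3 against 10.6 to 37.9 CPM (0.52, SE 0.41, adjusted p = 0.999). Serpina3n gave 0.06 (SE 0.29, adjusted p = 1) in the ARC and -0.63 (SE 0.45, adjusted p = 1) in the PVN, where library 24 held the highest Nnat+/+ value. Without library 24 the PVN value was -0.12 (SE 0.41), and that of Gfap was 0.12 (SE 0.25). No member passed in either nucleus, where 0.0127% and 0.00569% of genes did, and none had an unadjusted p under 0.05, beside 4.54% and 0.99% of genes. DESeq2 and voom called no member either.

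Among mutants, the fitted diet differences of Serpina3n and Gfap had opposite signs, and that of Serpina3n did not pass the threshold. HFD Nnat+/-p males weighed 38.2 to 43.1 g in the ARC and 38.2 to 43.9 g in the PVN, and obese chow Nnat+/-p males 38.8 to 46.5 g in both. Serpina3n in the ARC stood at 58.7, 86.3, 92.3 and 122 CPM on HFD against 37.1 to 60.3 CPM on chow, a log2 fold change of 1.05 (SE 0.33, adjusted p = 0.252), just short of the threshold. In the PVN it stood at 14.6, 15.6 and 17.1 CPM on HFD, against 3.45 to 14.5 CPM in the 4 chow obese libraries (1.13, SE 0.49, adjusted p = 0.612). These PVN groups did not overlap, by a narrow margin at 14.6 against 14.5 CPM, and 3.77% of all genes were higher without overlap. Gfap had log2 fold changes of -0.60 (SE 0.42) in the ARC and -0.70 (SE 0.28) in the PVN, with no p, since the obese chow libraries are those whose high Gfap led to its choice. Vim was the only member called in the ARC, where 1.27% of genes were, and Serpina3n and Vim had an unadjusted p under 0.05, as did 8.89% of genes. It stood at 15.9, 19.0, 25.5 and 34.0 CPM on HFD against 10.8, 10.9, 15.0 and 18.4 CPM on chow, so that the groups overlapped, with a log2 fold change of 0.82 (SE 0.25, adjusted p = 0.232). That call was lost when any single library of the 2 groups was left out. No member was called in the PVN, where 0.262% of genes were, and Serpina3n had an unadjusted p under 0.05, as did 7.53% of genes. The comparisons share libraries with those above and are not independent of them.

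**Figure D4:**
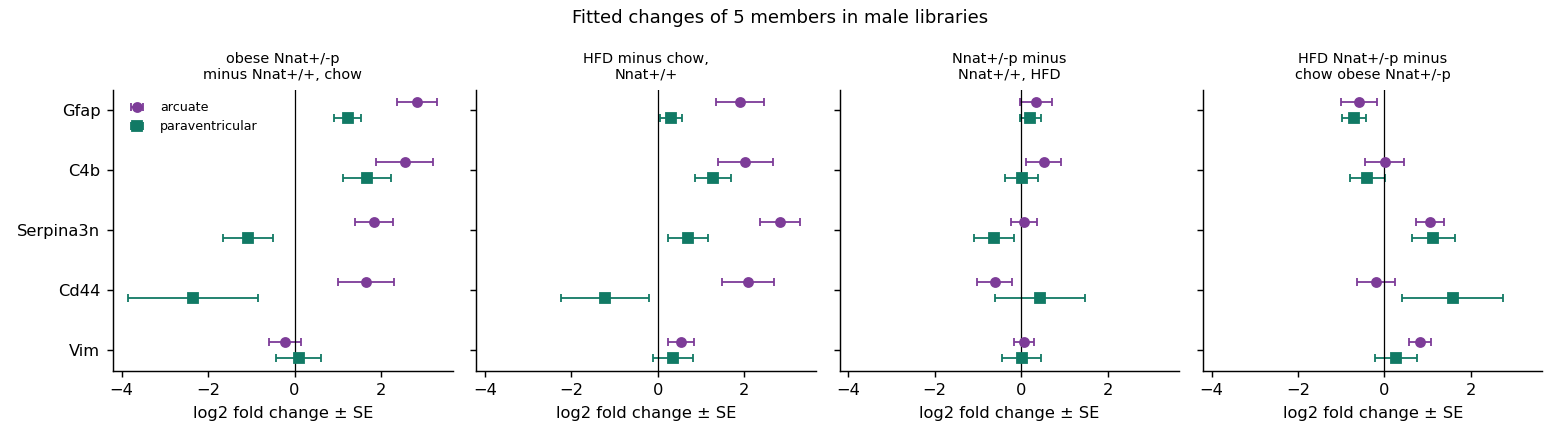
Fitted log2 fold changes (points) and standard errors (bars) of 5 members in 4 male comparisons, circles for the arcuate and squares for the paraventricular nucleus. Serpina3n lies at 2.82 for diet in arcuate Nnat+/+ and on opposite sides of 0 in the 2 nuclei for obese Nnat+/-p against Nnat+/+ on chow. The points for genotype on HFD lie between -0.63 and 0.52.

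The remaining members gave low or uneven values. Vim in the PVN ran from 3.09 CPM in library 15 to 66.9 CPM in males and from 5.37 to 87.3 CPM in females, with no order by group. Osmr, the receptor chain for oncostatin M, ran from 0 to 9.15 CPM in male libraries, and S1pr3, a receptor for sphingosine 1-phosphate, from 0.163 to 14.5 CPM. Neither passed in any of the 15 comparisons or 4 slopes. Lcn2, the iron-siderophore carrier lipocalin 2, had at most 29 counts in a library and entered no fit. Timp1, an inhibitor of matrix metalloproteases, passed the filter in the ARC fit with both diets and in the joint fit of both nuclei, and in no other. It had at most 28 counts in a library and lies across from Syn1 on the opposite strand, so that its reads are uncertain where counting ignored strand. Steap4, a metalloreductase, passed the filter only in females, where its highest value was 6.89 CPM. Female library 10 stood apart, with 12898 genes detected against 15135 to 19707 in the other 9, and with 0 counts of Serpina3n, Cd44 and S1pr3.

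The summed level of homeostatic astrocyte genes did not separate the groups as Gfap did. Over 16 such genes, among them the glutamate transporters Slc1a2 and Slc1a3, the water channel Aqp4 and the glutamine synthetase Glul, the summed level was 3446 to 4044 CPM in chow Nnat+/+, 2841 to 3796 CPM in obese Nnat+/-p and 1832 to 3684 CPM in HFD Nnat+/+ ARC libraries. None of the 16 was called in any of the 15 comparisons. Per 100 counts of these genes, Gfap had 0.714 and 0.945 counts in chow Nnat+/+ ARC libraries, 1.21 to 4.44 in non-obese and 4.86 to 10.8 in obese Nnat+/-p libraries. The HFD libraries of the ARC overlapped the obese ones, at 1.28 to 7.73 in Nnat+/+ and 1.84 to 6.66 in Nnat+/-p. In the male PVN, the groups lay farther apart in this measure than in CPM. It was 3.67 to 4.76 in the 4 obese Nnat+/-p libraries, against 1.10 to 2.23 in the 6 other chow libraries and 1.55 to 3.31 in the 9 HFD libraries. The 1.10 belonged to library 15 and the 1.55 to library 24. In the female PVN it overlapped, at 3.24, 4.03 and 5.12 in obese Nnat+/-p against 1.70, 3.52 and 3.71 in non-obese Nnat+/-p and 1.55 to 2.68 in Nnat+/+ libraries. The measure was added after the values were seen and has no test.

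**Figure D5:**
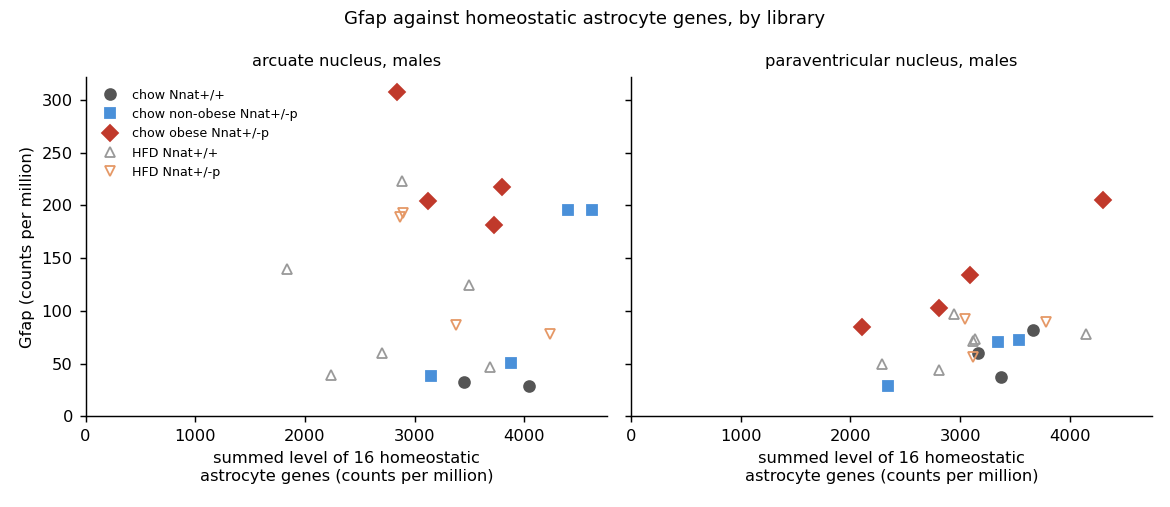
Gfap against the summed level of 16 homeostatic astrocyte genes, both in CPM, 1 point per male library. In the paraventricular nucleus the 4 obese Nnat+/-p libraries lie above the rest for a given level of homeostatic genes, with 3.67 to 4.76 counts of Gfap per 100.

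Markers of other cells were examined beside these values. Oligodendrocyte markers moved with the diet in ARC Nnat+/+ libraries. Their sum over 6 genes was 601 and 740 CPM on chow and 161 to 497 CPM on HFD, and 3 of the 6 fell (Mbp, Mobp and Mal, log2 fold changes of -1.09, -1.25 and -0.91). Among 8 tanycyte and ependymal markers, 5 were tested and Col23a1 rose (2.94, SE 0.72, adjusted p = 0.133). In this ARC comparison, which rests on 2 chow libraries, 1.16% of all genes were called. Markers of ARC neurons stood with the same groups as Gfap and Serpina3n. Summed over the 5 that were measured (Agrp, Npy, Pomc, Tac2 and Ghrh), none of them at 0 throughout a group, they stood at 40.7 and 42.0 CPM in chow Nnat+/+, at 18.4 to 101 CPM in non-obese and 94.9 to 144 CPM in obese chow Nnat+/-p, at 41.5 to 541 CPM in HFD Nnat+/+ and at 152 to 276 CPM in HFD Nnat+/-p ARC libraries. In the ARC diet comparison all 5 had positive log2 fold changes, with a median of 2.20, and none was called. The part of these markers in the ARC values of Gfap, Serpina3n, C4b and Cd44 was not tested. None of the 8 microglia markers was called in any of the 15 comparisons, and their sum was 93.9 to 104 CPM in chow Nnat+/+, 113 to 132 CPM in obese Nnat+/-p and 66.8 to 121 CPM in HFD Nnat+/+ ARC libraries.

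The gp130 pathway was read by role. Of 6 ligand genes, only Lif passed the filter in the ARC, 3 did in the male PVN with both diets, and none was called. Of 5 receptor genes, among them the leptin receptor Lepr and the gp130 gene Il6st, none was called in any comparison. In the ARC diet comparison Lepr and Il6st had log2 fold changes of 3.33 (SE 1.19) and 0.62 (SE 0.22), each with an adjusted p of 0.347. Of 7 kinase, factor and inhibitor genes, Stat3 alone was called. It was higher on HFD in ARC Nnat+/+ males, from 37.9 and 40.2 CPM to 45.1 to 88.8 CPM (median 57.6), a log2 fold change of 0.84 (SE 0.21, adjusted p = 0.142). That comparison rests on 2 chow libraries, and 1.16% of all genes passed in it. The Stat3 call was not examined with single libraries left out. Non-obese and obese chow Nnat+/-p males had 38.1 to 75.8 and 47.4 to 60.8 CPM of Stat3, and HFD Nnat+/-p males 69.1 to 81.2 CPM.

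Other lists of reactive genes held few calls. Of 12 A1-type genes, those linked to inflammation, 11 were tested in the ARC and H2-D1, a class I antigen-presenting gene, rose with HFD in Nnat+/+ males (1.44, SE 0.31, adjusted p = 0.0604). The median over the list was 0.60, beside 0.02 over all genes. This diet comparison rests on 2 chow libraries in the ARC, and 1.16% of all genes passed in it, as did 1.43% in the PVN. In the PVN, Amigo2 was lower in the same comparison (-1.12, adjusted p = 0.145), and of 12 A2-type genes S100a10 was higher (1.70, SE 0.40, adjusted p = 0.0740). Of 4 other pan-reactive genes, Cp, the ferroxidase ceruloplasmin, was lower in HFD Nnat+/-p than in obese chow Nnat+/-p PVN (-2.30, SE 0.57, adjusted p = 0.217). Of 7 complement genes, C2 was higher in the ARC (2.96, SE 0.90, adjusted p = 0.229) and lower in the PVN (-3.41, SE 0.77, adjusted p = 0.144) in that comparison. Of 4 other filament genes, including Nes and Synm, none was called in any comparison.

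C4b was the gene whose pattern was most like that of Gfap in males. Among 14909 genes, ranked by the lower of Pearson's r with Gfap over the 20 ARC and over the 19 male PVN libraries (log2 CPM), C4b came first with r = 0.87 and 0.58. The 7 after it were Aqp4, 1 of the 16 homeostatic genes (0.65 and 0.53), Jun (0.49 and 0.49), Zxdc (0.59 and 0.45), Slc22a4 (0.70 and 0.45), Baz1a (0.45 and 0.53), Pycrl (0.49 and 0.43) and 9230116N13Rik (0.50 and 0.43). Over the female PVN libraries, which the ranking did not use, r was 0.58 for C4b, -0.34 for Aqp4, 0.24 for Jun and -0.12 for Zxdc. It was -0.10 for Slc22a4, 0.60 for Baz1a, -0.03 for Pycrl and -0.43 for 9230116N13Rik, while Tead2 had 0.82. Serpina3n had r = 0.56 in the ARC and -0.53 in the male PVN, and Cd44 had 0.49 and -0.56. All male PVN values of r include libraries 15 and 24, whose markers did not match their labels, and were not computed without them. Library 24 held the highest Serpina3n of the male PVN, 60.0 CPM, beside 43.5 CPM of Gfap. Library 15 held its highest Cd44, 6.35 CPM, beside 37.0 CPM of Gfap. The libraries share depth, tissue capture and the group differences described above, so that these values are a description with no test.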

How the data were processed

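The submitters' processing notes name STAR 2.5.0a and GRCm38. The counter, annotation and strand setting are not given in the sources used here. The authors deposited raw read counts per Ensembl gene in 3 tables (male ARC, male PVN, female PVN), from laser-captured tissue and stranded total RNA libraries. Counts per 1000000 (CPM) were computed here from each library's total. Symbols came from GENCODE and promoter windows from RefSeq (GRCm38.p6). Each table was fitted on its own with edgeR 4.0.16 in R 4.3.3 (quasi-likelihood test, TMM factors, filterByExpr with a minimum count of 10), the chow groups alone for chow comparisons and all groups of the table for HFD comparisons, with Benjamini-Hochberg adjustment over all genes tested and calls at an adjusted p under 0.25, the study's threshold. Weight slopes were fitted within 1 group or genotype of at least 6 libraries. Alternatives used RLE factors, other filters, DESeq2 1.42.0, voom (limma 3.58.1) and omitted libraries. Scripts were tested on simulated data. The members and gene lists were chosen with earlier results of these data known. The text names all members and list genes past the threshold (or, where a list had none, the 1 or 2 of smallest p). It also names the 8 genes most correlated with Gfap in males. Libraries 5, 7 and 35 were left out for depth and 32 for its unclear label. Deeper libraries give more precise values, and intervals and limits cover counting error only. Of the listed genes, 1 was not analysed here. Another listed gene is not reported here and was left out of its marker sum. The Gfap share of homeostatic counts and the joint fit of both nuclei, with and without blocks of equal labelled weight, were added after the data were seen. The blocked fit used voom, because edgeR estimated infinite prior degrees of freedom there, which disregards a gene's own spread, and its p-values were set aside.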

Additional observations from a re-analysis of the deposited data

Results flagged for a closer look

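Of 49 combinations of group and member with 4 to 10 libraries, 1 held a library far from the others by Dixon's test, a rule that flags about 1 in 20 such groups by chance. In the PVN of HFD Nnat+/+ males, Serpina3n stood at 60.0 CPM in library 24, while the other 5 libraries stood at 12.7 to 20.4 CPM. The same library held 150 CPM of the PVN neuron markers, against 489 CPM or more in the 27 PVN libraries other than 15 and 24, and its Gfap, at 43.5 CPM, and its Vim, at 10.2 CPM, were the lowest of the group. The part of this difference in the value was not tested.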

How the results depend on the processing

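Replicate numbers gave no pairs, because they run from 1 to 53 over the series and no number is shared between groups. Labelled weights match libraries between the nuclei, and with these sets as a block no call on a difference between nuclei changed, while that of Gfap in obese against non-obese Nnat+/-p turned from -0.16 to 0.27 (SE 0.49). The counts below include Gfap, from whose calls in comparisons with chow nothing is read. Of 123 alternatives for the counts of members called, leaving out no single library, 99 stayed within 1.5 times. In all 30 alternatives for levels, the median moved by less than the SD between the libraries of its table, a looser rule. With genes of a total count over 1 in place of the filter, the count went to 3 for ARC chow obese Nnat+/-p against Nnat+/+, to 2 each for the other ARC chow comparisons and for ARC HFD against obese chow Nnat+/-p, to 4 for the ARC chow slope and to 1 each for PVN chow obese Nnat+/-p against Nnat+/+ and against non-obese Nnat+/-p, PVN HFD against chow Nnat+/+ and both HFD slopes. With only the 2 groups compared, the ARC chow obese count was 3. DESeq2 gave 1 for PVN chow obese Nnat+/-p against Nnat+/+ and 1 for PVN HFD against chow Nnat+/+. Voom gave 1 for ARC chow obese against non-obese Nnat+/-p, 1 for female obese Nnat+/-p against Nnat+/+ and 1 for ARC HFD against chow Nnat+/+. At an adjusted p under 0.05, and also without libraries 24, 30, 44 and 51, ARC HFD against chow Nnat+/+ gave 1 and ARC HFD against obese chow Nnat+/-p gave 0, and RLE factors gave 2 for the latter. Libraries 39 and 40 summed gave 1 for the ARC chow slope. Without the 2 weights farthest from the median, the PVN chow slope gave 0 and the ARC HFD slope 1.

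Leaving out each library in turn, the count ran from 0 to 4 for ARC HFD against chow Nnat+/+ (0 without library 33), from 0 to 2 for the ARC chow slope, and from 0 to 1 for ARC non-obese Nnat+/-p against Nnat+/+, PVN chow obese Nnat+/-p against Nnat+/+, ARC HFD against obese chow Nnat+/-p, PVN HFD against chow Nnat+/+ and the PVN chow slope (0 without library 17, 18 or 22). The cause of these changes was not tested, beyond the fewer libraries. Fitted values that changed sign were small or rested on few libraries. Without libraries 24, 30, 44 and 51, HFD Nnat+/-p against Nnat+/+ gave -0.061 for Gfap and -0.042 for Serpina3n in the ARC and -0.049 for Gfap in the PVN. Without the 2 farthest weights, the ARC HFD slope was 1.42 for Gfap and 0.43 for C4b, over 4 libraries. With single libraries left out, PVN non-obese Nnat+/-p against Nnat+/+ ran from -0.25 to 0.27 for Gfap, ARC HFD Nnat+/-p against Nnat+/+ from -0.19 to 0.28 for Serpina3n, and the Gfap slopes on HFD from -0.25 to 0.047 in the ARC and from -0.16 to 0.086 in the PVN. Depth limits Lcn2, Timp1 and Steap4, whose counts of 0 allow up to 2.03 CPM in the shallowest library.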
